A study of Arabidopsis thaliana with 9 samples.

Results

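The transcriptomes of cauline buds on the arrays labelled NAA were compared with those on the arrays labelled mock, with every probe set of the array taken as a member. These are 6 of the 9 arrays of the series, 3 in each group, chosen by their titles. Buds came from node 1 of Col-0 wild-type Arabidopsis plants aged 3 to 4 weeks, on isolated stem segments that each bore the first cauline bud and stood in split agar plates for 18 h. The NAA group received 1 µM of the synthetic auxin 1-naphthaleneacetic acid (NAA) at the apical end, and the mock group received ethanol there. A further group of 3 arrays, NAA+BA, received 1 µM NAA apically and 1 µM of the cytokinin (CK) 6-benzylaminopurine (BA) basally. The segments keep their stem tissue but have lost the shoot tip and the roots, so that hormones reach the bud only from the plate or from the segment itself. Values are log2 expression values of the Affymetrix ATH1 array. Groups are named by their deposited labels, but Data S1, the study's list of genes lowered by apical auxin and raised again with CK, takes these 2 groups the other way round. Wherever a gene is called lower below, the grouping of Data S1 would make it higher with auxin, and the reverse.

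Auxin that moves down the stem from the shoot tip holds axillary buds back, a control known as apical dominance, and cytokinin counters it. Buds that are held back are known in several species to carry high transcript levels of genes linked to dormancy, sugar starvation, abscisic acid and water deficit, while buds that start to grow raise genes of the cell cycle, DNA replication and ribosome production. On an isolated segment a bud is freed from its own apex, so that apical NAA stands in for the missing shoot tip.

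The larger response was on the lower side. With limma, 800 of the 22810 probe sets (3.51%) were lower on the arrays labelled NAA than on those labelled mock, and 291 (1.28%) were higher. A probe set was called where its Benjamini-Hochberg adjusted p fell under 0.05 and the groups differed at least 2-fold. In either direction 4.78% were called, and lower probe sets made up 73.3% of them. The imbalance lay in the size of the changes: 154 probe sets were lower by 4-fold or more and 28 by 8-fold or more, against 8 and 0 that were higher by as much. At an adjusted p under 0.05 with no fold threshold the numbers were nearly level, at 2120 lower and 2059 higher. The median log2 fold change was -1.40 among the lower and 1.14 among the higher called probe sets, and 0.04 over all probe sets. The 3 NAA arrays did not overlap the 3 mock arrays in 788 of the 800 lower and 288 of the 291 higher probe sets, where 14.3% and 17.3% of all probe sets were separated in those directions.

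**Figure D1:**
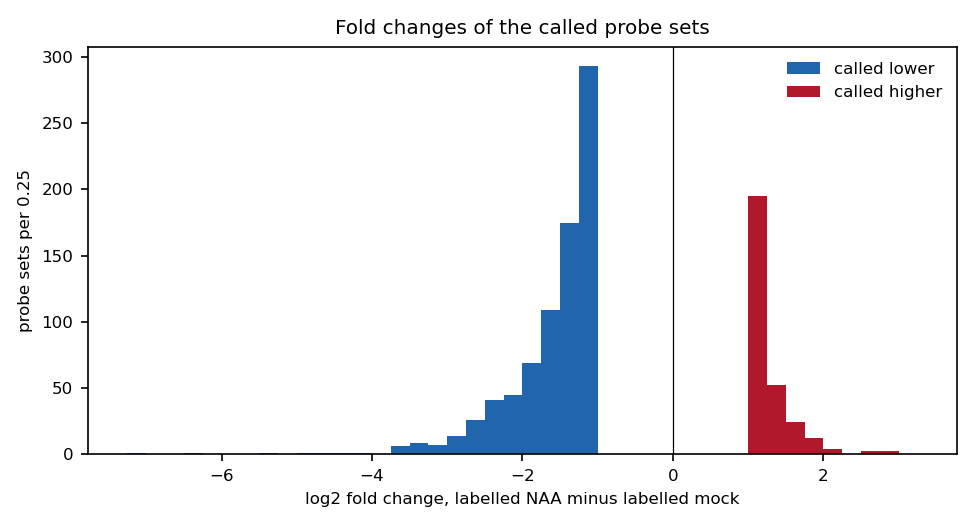
Number of called probe sets (vertical axis, per 0.25 of log2 fold change) against the log2 fold change of arrays labelled NAA minus arrays labelled mock (horizontal axis), with 800 called lower in blue and 291 called higher in red. The lower side reaches a log2 fold change of -7.09 and the higher side 3.00, and Data S1 takes both groups the other way round.

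The arrays within a group were not equally far apart. The mean log2 value over the 800 lower probe sets was 7.14, 7.19 and 7.09 on NAA replicates 1, 2 and 3, 7.36, 7.38 and 7.24 on the NAA+BA replicates, and 9.03, 8.83 and 8.35 on the mock replicates. Mock replicate 3 thus stood nearest to the NAA arrays, and it was the lowest mock array in 635 of the 800 lower probe sets. Over the 291 higher probe sets the means were 8.94, 8.84 and 8.77 on the NAA arrays, against 7.34, 7.47 and 7.97 on the mock arrays, and mock replicate 3 was the highest mock array in 233 of them. Without mock replicate 3, 1218 probe sets were lower and 823 higher, which held 764 of the 800 and 279 of the 291, and the lower ones made up 59.7% of those called. Array medians lay between 6.987 and 7.112, and precision is set by having 3 arrays a group. Nothing in the labels says how many plants went into 1 array, and in bulk buds fewer cells of a type and less RNA per cell cannot be told apart.

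Markers of tissues could be checked for few genes, because the annotation used here pairs only 13513 probe sets with 1 gene. CUC3, which marks the boundaries of lateral organs in the shoot meristem, was 7.20, 6.97 and 6.23 on the NAA arrays, against 5.53, 5.80 and 5.39 on the mock arrays (log2 fold change 1.23, adjusted p = 0.0073 from limma). It was named only through Data S1, whose 220 entries were all called higher, so that it could be checked here only because it was higher. CLV3, a signal of the stem cells at the meristem tip, had a log2 fold change of 0.04 and was below 5 on all arrays of both groups. The root hair expansins EXPA7 (-0.46) and EXPA18 (-0.05) were not called. EXPA18 was below 5 on all arrays of both groups, and EXPA7 on all but mock replicate 3 (5.18). The leaf mesophyll gene RCA, which encodes rubisco activase, passed the adjusted p (0.0357) with no overlap between the groups but not the 2-fold limit (-0.56). The reference genes PEX4 (-0.02), AT2G28390 (0.01) and AT4G34270 (0.16) were not called either, nor was any of the 64 control probe sets. No listed marker of the flower, xylem, phloem or epidermis had a named probe set, so that their part in the differences was not tested.

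HIS1-3, a linker histone variant known to accumulate in drying leaves, had the largest decrease of any named gene. Its log2 value was 4.31, 4.72 and 3.61 on the NAA arrays and 11.18, 11.08 and 9.41 on the mock arrays, and the log2 difference was -6.34 with a standard error of 0.67 (adjusted p = 0.000636 from limma). The groups were more than 4 log2 units apart, and the NAA+BA arrays lay between them at 7.83, 7.52 and 5.28. Between NAA+BA and NAA the gene was not called (adjusted p = 0.9996 from limma). CCL (CCR-like) stood at 8.56, 9.36 and 9.60 on the NAA arrays and at 13.04, 12.84 and 12.71 on the mock arrays, a log2 fold change of -3.69 (standard error 0.27). SIS, named as a serine-rich gene induced by salt, was 6.52, 6.69 and 6.14 on the NAA arrays, against 10.73, 10.10 and 8.78 on the mock arrays (-3.42, standard error 0.42). In each of these genes the mock arrays were all higher than the NAA arrays, and mock replicate 3 was the lowest of them. The grouping of Data S1 turns all 3 directions round.

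The 25 largest decreases among genes with 1 name and no overlap ran from -6.34 to -2.66 on the log2 scale, with adjusted p between 3.28e-05 and 0.0042. Each gene of the 25 kept its call when any single array was left out. The smallest gap between the highest NAA array and the lowest mock array was 1.27, and mock replicate 3 was the lowest mock array in 21 of them. The mean of the NAA+BA arrays lay between those of the NAA and mock arrays in 23. All but 4 of the 25 carry only a locus code here. AT1G49500 was the second of the named genes, with 5.58, 5.50 and 5.44 on the NAA arrays and 10.50, 9.72 and 9.29 on the mock arrays (-4.33, standard error 0.29). AT1G73480 had the smallest error of the 25, with 5.18, 5.37 and 5.49 on the NAA arrays and 8.45, 8.28 and 7.88 on the mock arrays (-2.86, standard error 0.16, adjusted p = 3.28e-05 from limma). AT3G62550 was 5.64, 5.74 and 6.55 on the NAA arrays, against 9.21, 8.92 and 10.43 on the mock arrays, and here mock replicate 3 was the highest array.

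**Figure D2:**
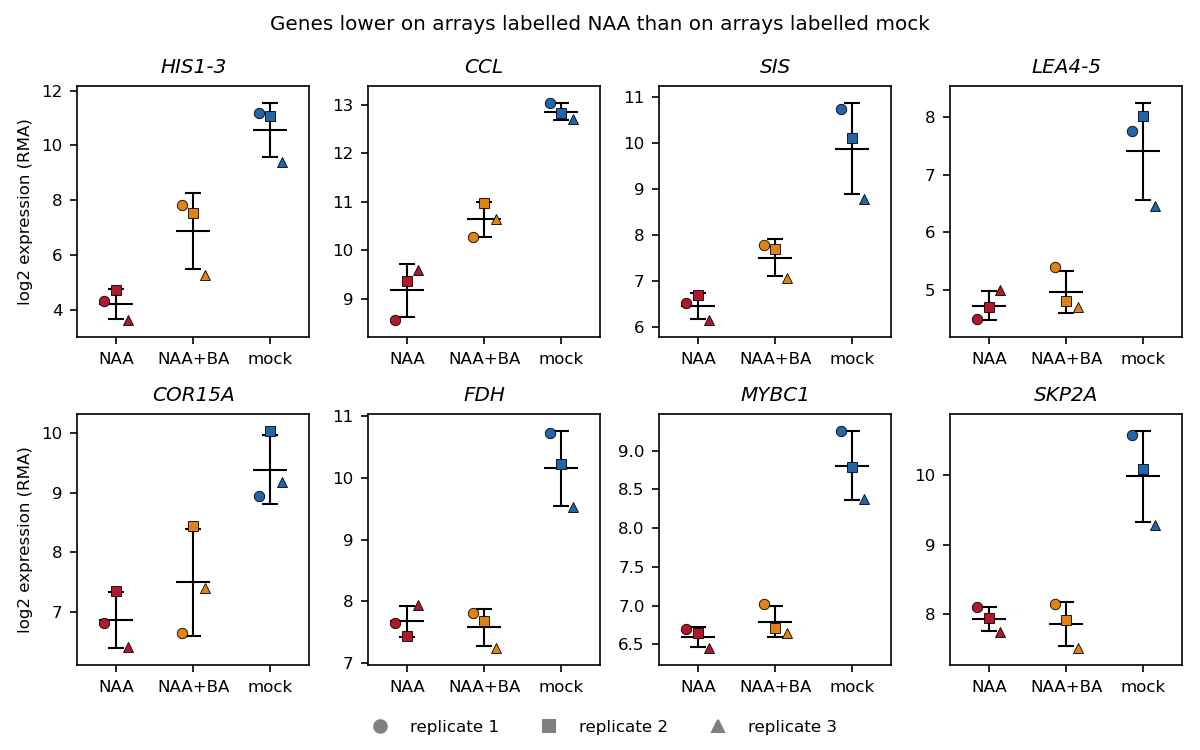
Log2 expression (vertical axis, RMA values) on each array of the groups labelled NAA, NAA+BA and mock for 8 genes called lower, with points for arrays, symbols for the replicate number, a line for the group mean and bars for 1 SD (n = 3). HIS1-3, CCL and SIS have NAA+BA arrays between the other groups but were not called between NAA+BA and NAA, where only 1 of the 800 lower probe sets was called. FDH, MYBC1 and SKP2A have the NAA+BA arrays level with the NAA arrays.

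Several genes of water deficit and cold were on the lower side. Of 36 listed genes 7 had a named probe set, and 5 of these were called lower, with a median log2 fold change of -2.06 over the 7, where 3.1% of all genes with 1 probe set each were lower and their median was 0.05. Besides HIS1-3 these were LEA4-5, a late embryogenesis abundant protein thought to shield other proteins from drying, COR15A, a chloroplast protein that protects membranes in the cold, and the dehydrins LTI30 and COR47. LEA4-5 was 4.48, 4.69 and 4.99 on the NAA arrays and 7.76, 8.02 and 6.45 on the mock arrays (-2.69, standard error 0.37, adjusted p = 0.0018 from limma). COR15A was 6.81, 7.35 and 6.41 on the NAA arrays, against 8.94, 10.04 and 9.18 on the mock arrays (-2.53, standard error 0.44). Both genes were separated between the groups, with the NAA arrays low.

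COR47 was 7.66, 7.38 and 7.69 on the NAA arrays and 9.14, 9.57 and 8.90 on the mock arrays (-1.63, standard error 0.22). LTI30 was between 4.54 and 4.68 on the NAA arrays, and its mock arrays ranged widely, at 6.26, 8.18 and 5.49 (-2.06, standard error 0.54, adjusted p = 0.0276 from limma). Its call rests on the full set of arrays, since the adjusted p was 0.0747, 0.0807 and 0.0708 without NAA replicate 1, 2 or 3 and 0.0573 without mock replicate 1. COR15B, the neighbour and close relative of COR15A, was 7.01, 7.87 and 7.10 on the NAA arrays, against 7.49, 8.63 and 9.50 on the mock arrays. These groups overlap, and the log2 fold change of -1.21 had an adjusted p of 0.1284, or 0.0197 with the replicate number as a block. The remaining member, ERD6, a sugar transporter-like gene first found in drying plants, was higher, at 8.48, 8.72 and 8.60 on the NAA arrays and 6.19, 6.60 and 8.04 on the mock arrays (1.66, adjusted p = 0.0163). ERD6 was named only as an entry of Data S1, whose entries were all called higher. Its call was lost without NAA replicate 2 (adjusted p = 0.0581) or mock replicate 1 or 2 (0.0536 and 0.0655). In ERD6, too, mock replicate 3 lay nearest to the NAA arrays.

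Further genes of the same kind were picked after their values were seen. LEA18, another late embryogenesis abundant protein, was 4.58, 4.63 and 4.90 on the NAA arrays and 7.33, 7.42 and 6.29 on the mock arrays (-2.31, standard error 0.27). COR27, a cold-regulated gene that also follows the clock, differed by -2.02 (standard error 0.19), with NAA arrays from 3.42 to 3.90 and mock arrays from 5.55 to 6.01. XERICO, a RING protein known to raise abscisic acid levels, was 8.80, 8.76 and 8.53 on the NAA arrays, against 10.87, 10.49 and 9.93 on the mock arrays (-1.73, standard error 0.22). PUB19, a U-box ubiquitin ligase of the drought response, differed by -1.66 (standard error 0.22). All 4 had NAA arrays below every mock array and kept their call without any single array, and in Data S1 the names of the groups are exchanged. The 35 listed genes of abscisic acid synthesis, breakdown and signalling were not named on these probe sets and so are not analysed here.

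Some of the genes that starved cells raise to burn amino acids were lower. Of 39 genes listed for sugar starvation and branched-chain amino acid breakdown 12 were measured, 4 of them were called lower and 1 higher, and 10 of the 12 log2 fold changes were below 0, with a median of -0.67. Over all genes 3.1% were lower and 1.9% higher, and the median was 0.05. The bifunctional enzyme that begins lysine breakdown, LKR/SDH (AT4G33150), was 7.12, 6.79 and 6.83 on the NAA arrays and 9.29, 8.50 and 8.12 on the mock arrays (-1.72, standard error 0.26, adjusted p = 0.0030 from limma). MCCA, a subunit of the enzyme that carboxylates an intermediate of leucine breakdown, was 7.49, 7.42 and 7.29 on the NAA arrays, against 9.04, 8.49 and 8.39 on the mock arrays (-1.24, standard error 0.19). The partner subunit MCCB moved less, at -0.54 (adjusted p = 0.0088 from limma), as did IVD, an acyl-CoA dehydrogenase of the same pathway, at -0.95 (adjusted p = 0.0069) and D2HGDH, which oxidises 2-hydroxyglutarate, at -0.81 (adjusted p = 0.0124). These 3 passed the adjusted p but not the 2-fold limit. PRODH2 (AT5G38710) did the same on the higher side (0.97, adjusted p = 0.0418 from limma), with no overlap between the groups. It was below 5 on all arrays of both groups but NAA replicate 3 (5.52).

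AKINBETA1, a subunit of the SnRK1 kinase that senses low energy, was 8.44, 8.53 and 8.35 on the NAA arrays and 10.43, 9.83 and 9.53 on the mock arrays (-1.49, standard error 0.20, adjusted p = 0.0019 from limma). PPDK, which makes phosphoenolpyruvate when storage compounds are broken down, was 5.96, 6.42 and 6.67 on the NAA arrays, against 8.28, 8.49 and 6.62 on the mock arrays. Its groups overlap through mock replicate 3, and its call (-1.45, adjusted p = 0.0382) was lost without any single array other than mock replicate 3, with adjusted p between 0.0581 and 0.1386. The list's member called higher was GBF6 (bZIP11), a transcription factor whose translation sucrose represses. GBF6 had the same value of 10.11 on all NAA arrays and 8.01, 8.35 and 9.07 on the mock arrays (1.63). It was named only as an entry of Data S1, whose entries were all called higher here, and Data S1 takes both groups the other way round.

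Other enzymes of amino acid and one-carbon breakdown, named after their values were seen, did not all move together. FDH, the mitochondrial formate dehydrogenase, was 7.65, 7.43 and 7.93 on the NAA arrays and 10.73, 10.23 and 9.52 on the mock arrays (-2.49, standard error 0.28, adjusted p = 0.000898 from limma). DELTA-OAT, which converts ornithine, was 7.79, 7.61 and 7.55 on the NAA arrays, against 8.99, 8.93 and 8.55 on the mock arrays (-1.18, standard error 0.16). ERD5, the proline dehydrogenase that starts proline breakdown, stood the other way, at 10.76, 10.67 and 10.75 on the NAA arrays and 7.78, 7.64 and 9.16 on the mock arrays (2.53, standard error 0.34), and it belongs to Data S1.

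Of the autophagy genes measured, most of them ATG8 genes, some ATG8 genes were called lower. Autophagy delivers cell contents to the vacuole, and ATG8 is the ubiquitin-like protein that is anchored in the membrane of the growing autophagosome. Of 17 listed genes 11 were measured, 9 of them ATG8 genes. All 11 had log2 fold changes below 0 with a median of -0.76, and 4, all ATG8 genes, were called lower. Over all genes 3.1% were lower with a median of 0.05. Outside ATG8 only ATG1A (-0.27) and ATG4B (-0.19) were measured, and neither was called, so that ATG8 cannot be set apart from the other autophagy genes. ATG8F was 9.56, 9.65 and 9.22 on the NAA arrays and 11.48, 11.15 and 10.32 on the mock arrays (-1.50, standard error 0.28, adjusted p = 0.0070 from limma). ATG8H was 5.21, 4.95 and 5.23 on the NAA arrays, against 6.36, 6.91 and 6.31 on the mock arrays (-1.40, standard error 0.21). ATG8E was 8.06, 7.85 and 7.54 on the NAA arrays and 9.83, 10.07 and 8.49 on the mock arrays (-1.64, adjusted p = 0.0126, or 0.0530 without mock replicate 1). In these 3 genes no NAA array reached the lowest mock array.

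ATG8B touched between the groups, with 8.03, 7.66 and 7.10 on the NAA arrays and 9.05, 9.12 and 8.03 on the mock arrays (-1.14, adjusted p = 0.0302). It lost its call without NAA replicate 2 or 3 (adjusted p = 0.0770 and 0.0922) or without mock replicate 1 or 2 (0.1128 and 0.1117). The other 5 of the 9 ATG8 genes lay between -0.86 and -0.04 and were not called. APG8A (-0.86), APG8H (-0.76) and ATG8D (-0.60) among them had an adjusted p under 0.05, and ATG8C (-0.69, adjusted p = 0.0991) did not. Without mock replicate 1 the list held 2 called members.

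Of the 4 vacuolar processing enzymes, cysteine proteases that mature other vacuolar proteins, 2 were lower as well, where 3.1% of all genes were. The family was picked after their values were seen. BETA-VPE was 6.46, 6.75 and 6.09 on the NAA arrays and 8.01, 8.70 and 7.60 on the mock arrays (-1.67, standard error 0.32, adjusted p = 0.0073 from limma). GAMMA-VPE was 9.54, 9.93 and 9.90 on the NAA arrays, against 11.67, 11.62 and 10.64 on the mock arrays (-1.52, standard error 0.28). The other 2 members, ALPHA-VPE (0.32) and DELTA-VPE (0.02), were below 5 on all arrays of both groups and were not called. SCPL49, a serine carboxypeptidase, was 8.22, 8.39 and 8.33 on the NAA arrays and 9.26, 9.18 and 9.87 on the mock arrays (-1.12). Without mock replicate 3 its log2 fold change was -0.91 (adjusted p = 0.0018) and short of 2-fold.

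The 3 gibberellin receptor genes, grouped after their values were seen, were all called lower, where 3.1% of all genes were. Gibberellin promotes growth by binding GID1 proteins, which then bring DELLA repressors to the F-box protein SLY1 for removal. GID1A was 7.34, 7.82 and 7.21 on the NAA arrays and 9.13, 8.75 and 8.60 on the mock arrays (-1.37, standard error 0.20, adjusted p = 0.0024 from limma). GID1C was 6.42, 6.45 and 6.43 on the NAA arrays, against 7.99, 7.61 and 7.49 on the mock arrays (-1.26, standard error 0.14, adjusted p = 0.000947). GID1B was 7.29, 7.26 and 7.26 on the NAA arrays and 9.31, 8.13 and 7.93 on the mock arrays (-1.19, standard error 0.30, adjusted p = 0.0225). The NAA arrays were below every mock array in all 3 genes.

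The call of GID1B was lost without NAA replicate 1, 2 or 3 (adjusted p = 0.0672, 0.0680 and 0.0570), and without mock replicate 1 its log2 fold change was -0.76 (adjusted p = 0.0126). SLY1 did not pass the test at 0.13 (95% interval from the limma fit -0.10 to 0.36). GA2OX8, which inactivates gibberellin precursors, was higher, at 5.81, 5.42 and 5.02 on the NAA arrays and 3.44, 3.89 and 3.74 on the mock arrays (1.73). GA2OX8 was named only as an entry of Data S1, whose entries were all called higher. Of 27 listed gibberellin genes 5 were measured, 3 of them called lower and 1 higher, against 3.1% and 1.9% of all genes. Most genes of synthesis are thus not analysed here. Under the grouping of Data S1 the receptors would be higher with auxin and GA2OX8 lower.

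**Figure D3:**
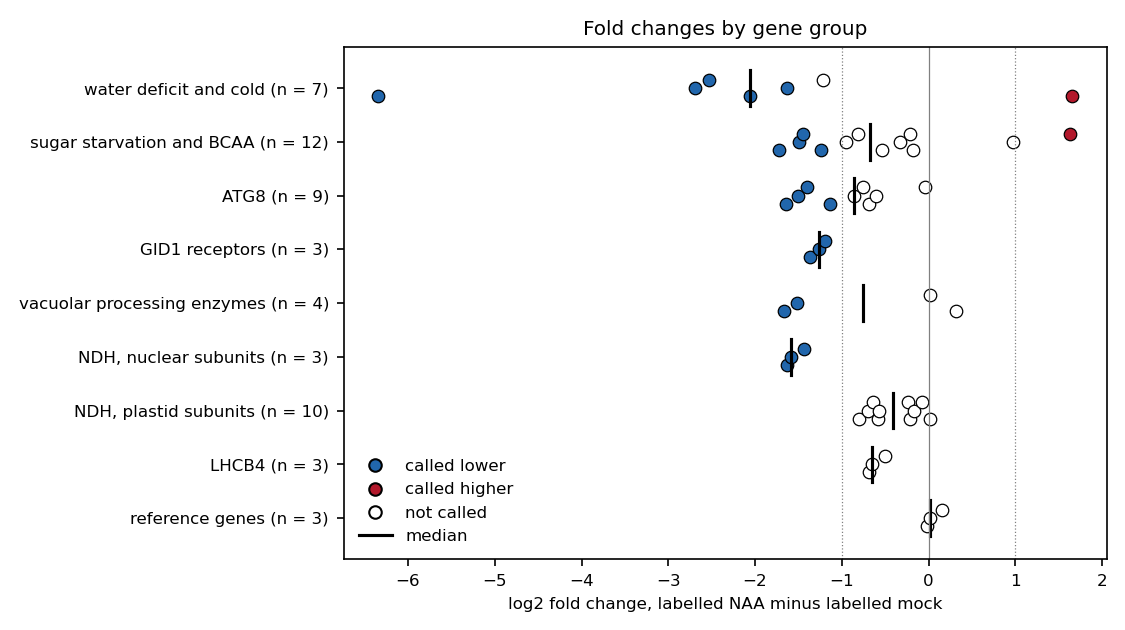
Log2 fold change of arrays labelled NAA minus arrays labelled mock (horizontal axis) for each measured gene of 9 groups (rows), filled blue where called lower, red where called higher and white where not called, with a bar for the median of the group and dotted lines at 2-fold. The 3 GID1 receptors and the 3 listed nuclear NDH subunits are all called lower, and the 10 plastid NDH subunits, the 3 LHCB4 genes and the 3 reference genes are not called.

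The 3 nuclear subunits of the chloroplast NDH complex listed here, NdhL, NdhN and NdhS, were called lower, and none of the 10 plastid-encoded subunits measured was. Other nuclear subunits of the complex were not listed, so that these 3 do not stand for all of them. This complex passes electrons from the stroma back to the plastoquinone pool around photosystem I, and its genes were grouped after their values were seen. Over all genes 3.1% were lower, so that no call among 10 genes lay near that share. NdhS was 9.31, 9.47 and 9.48 on the NAA arrays and 11.19, 11.21 and 10.64 on the mock arrays (-1.59, standard error 0.16, adjusted p = 0.000498 from limma). NdhL was 8.35, 8.69 and 7.80 on the NAA arrays, against 10.18, 10.14 and 9.40 on the mock arrays (-1.63, standard error 0.28). NdhN differed by -1.43 (adjusted p = 0.0131, or 0.0538 without mock replicate 1). The NAA arrays were low in all 3 nuclear genes, with no overlap.

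PIFI, a nuclear gene needed for the electron flow through this complex, was 8.65, 8.94 and 8.77 on the NAA arrays and 10.63, 10.75 and 10.72 on the mock arrays (-1.91, standard error 0.24). CRR42, an assembly factor of the complex, differed by -1.18 (standard error 0.12). The 4 other measured genes with a CRR symbol, CRR21, CRR22, CRR28 and CRR41, were not called (-0.49 to 0.09), and not all of them are assembly factors. The 10 plastid-encoded subunits had log2 fold changes between -0.80 and 0.02, 9 of them below 0, and a median of -0.40. The difference between nuclear and plastid genes was not itself tested. LHCB4.2 (-0.69), LHCB4.3 (-0.65) and LHCB4.1 (-0.50), which encode an antenna protein of photosystem II, missed the 2-fold limit, but LHCB4.2 (adjusted p = 0.0065) and LHCB4.1 (0.0181) passed the adjusted p, as did the mesophyll marker RCA (0.0357), whose part in the lower chloroplast genes was not tested. None of 15 ribosomal protein genes picked by an RPS or RPL symbol was called, near the shares over all genes of 3.1% lower and 1.9% higher. Their median was -0.21, with 13 of the 15 below 0, and they were not split by compartment.

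Of 39 listed genes of sugar transport, sucrose cleavage and starch 9 were measured and 1 was called (11.1%, against 3.1% of all genes lower). It was SWEET11, a sucrose exporter of the phloem, with 6.72, 6.89 and 6.37 on the NAA arrays and 8.34, 7.67 and 7.64 on the mock arrays (-1.22, standard error 0.29, adjusted p = 0.0178 from limma). The call was lost without NAA replicate 1 or 3 (adjusted p = 0.0548 and 0.0579) or without mock replicate 1 (0.0694). Its relative SWEET10, added with PWD from outside the list after their values were seen, was higher, at 9.60, 9.01 and 8.35 on the NAA arrays, against 7.54, 6.67 and 7.20 on the mock arrays (1.85), and is listed in Data S1. The phosphoglucan, water dikinase PWD at AT5G26570, which prepares starch for breakdown, differed by -1.05 (adjusted p = 0.0061) and was short of 2-fold without NAA replicate 1 (-0.91) or mock replicate 3 (-0.92).

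Some gene families had members on both sides, and these were chosen after their values were seen. The GH3 enzymes join auxin to amino acids. WES1, also named GH3.5, averaged 8.83 ± 0.19 on the NAA arrays and 11.08 ± 0.66 on the mock arrays (SD, n = 3 each), the lowest mock array being 10.39 (-2.25, standard error 0.31, adjusted p = 0.0018 from limma). GH3.3 was 8.97, 8.91 and 8.87 on the NAA arrays, against 7.96, 7.29 and 8.17 on the mock arrays (1.11, adjusted p = 0.0115), and its log2 fold change was 0.85 without mock replicate 2. GH3.17 differed by -0.96 and did not pass the test (adjusted p = 0.0679), with 6.97, 7.08 and 7.43 on the NAA arrays and 8.46, 8.42 and 7.47 on the mock arrays. The labelled directions of WES1 and GH3.3 were thus opposite, under either naming of the groups.

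Acireductone dioxygenases of the methionine salvage cycle were split in the same way. ARD4 was 9.65, 9.58 and 9.63 on the NAA arrays and 11.01, 11.01 and 10.08 on the mock arrays (-1.08, adjusted p = 0.0115 from limma), and ARD3 was 8.97, 8.39 and 8.10 on the NAA arrays and 6.60, 6.56 and 6.87 on the mock arrays (1.81, adjusted p = 0.0093). ARD4 was short of 2-fold without mock replicate 1 or 2 (-0.93 each). ARD3 is an entry of Data S1, and ARD4 is not. Among glycosyltransferases, which attach sugars to small molecules, 47 genes with a UGT symbol were measured and 2 called, a share near the 4.78% of all probe sets. These were UGT85A5, lower (-1.79, standard error 0.17), and UGT84A1, higher. The symbol leaves out glycosyltransferases under other names, such as UF3GT, which was higher (1.46). Of 26 genes with a CYP symbol, which leaves out the cytochrome P450 gene TT7 that was higher, CYP71B24 (-2.07, standard error 0.21) and CYP71B5 (-1.14, standard error 0.14) were lower and none was higher, against 3.1% and 1.9% of all genes.

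Several regulators on the lower side belong to none of these groups and were named after their values were seen, apart from GI, the 1 measured gene of 20 listed for the circadian clock. MYBC1, a MYB-like transcription factor, was 6.69, 6.65 and 6.45 on the NAA arrays and 9.26, 8.79 and 8.37 on the mock arrays (-2.21, standard error 0.21, adjusted p = 0.000405 from limma). SKP2A, an F-box protein that binds auxin and removes regulators of the cell cycle, was 8.10, 7.94 and 7.74 on the NAA arrays, against 10.58, 10.10 and 9.28 on the mock arrays (-2.06, standard error 0.29, adjusted p = 0.0023). In both, the NAA+BA arrays lay near the NAA arrays, from 6.65 to 7.02 for MYBC1 and from 7.51 to 8.14 for SKP2A. GI was 6.44, 6.76 and 6.94 on the NAA arrays and 7.69, 7.74 and 8.80 on the mock arrays (-1.37, adjusted p = 0.0155, or 0.0635 without NAA replicate 1).

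Of 27 listed genes of nitrogen uptake and assimilation 2 were measured, AT1G25550 and AT3G25790, both with only a locus code here. AT3G25790 was not called (-0.04) and was below 5 on all arrays of both groups. AT1G25550 was 6.30, 6.09 and 5.70 on the NAA arrays and 8.18, 7.58 and 8.38 on the mock arrays (-2.02, standard error 0.27, adjusted p = 0.0017 from limma). The other genes were added after their values were seen. The nitrate transporter gene NPF6.4 (AT3G21670) was 8.86, 9.10 and 8.61 on the NAA arrays, against 10.69, 10.71 and 9.67 on the mock arrays (-1.50, standard error 0.31, adjusted p = 0.0101). LPR2, a multicopper oxidase of the root response to low phosphate, differed by -1.50 (standard error 0.15), with NAA arrays from 7.15 to 7.52 and mock arrays from 8.66 to 8.97. No NAA array reached a mock array in AT1G25550, NPF6.4 or LPR2, and Data S1 takes the groups the other way round.

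Some lower genes were next to each other on the chromosome. Taking protein-coding genes in the order of the RefSeq annotation (TAIR10.1), 317 of the 416 named lower genes had a measured direct neighbour, and in 36 of them (11.4%) a direct neighbour was lower too. Over all 8993 genes with a measured direct neighbour the share was 4.66%, given as a description with no test. The 36 genes formed 16 runs, 13 of which held 2 genes and 3 held more. The longest run was AT2G29290, AT2G29300, AT2G29310 and AT2G29320, 4 genes beside the tropinone reductase gene TRI. AT2G29290 was 8.24, 8.58 and 7.46 on the NAA arrays and 10.39, 10.10 and 9.74 on the mock arrays (-1.98, standard error 0.27, adjusted p = 0.0019 from limma). AT2G29300 (-1.47) and AT2G29310 (-1.54) were separated between the groups too, and AT2G29320 (-1.76) lost its call without mock replicate 1 (adjusted p = 0.0718) or 2 (0.0679).

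TRI itself, next in the row, had a log2 fold change of -0.02 and was below 4 on all arrays of both groups, whereas AT2G29340 beyond it was 6.19, 6.26 and 6.26 on the NAA arrays, against 8.97, 8.45 and 7.83 on the mock arrays (-2.18, standard error 0.25). AT2G29260, AT2G29360 and AT2G29370 further out were not called. ATG8B and AT4G04630 (-1.81) formed one of the runs of 2. No named lower gene was read on a probe set whose name marks probes shared with other genes, but hybridisation of 1 gene's RNA to a relative's probes was not tested.

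**Figure D4:**
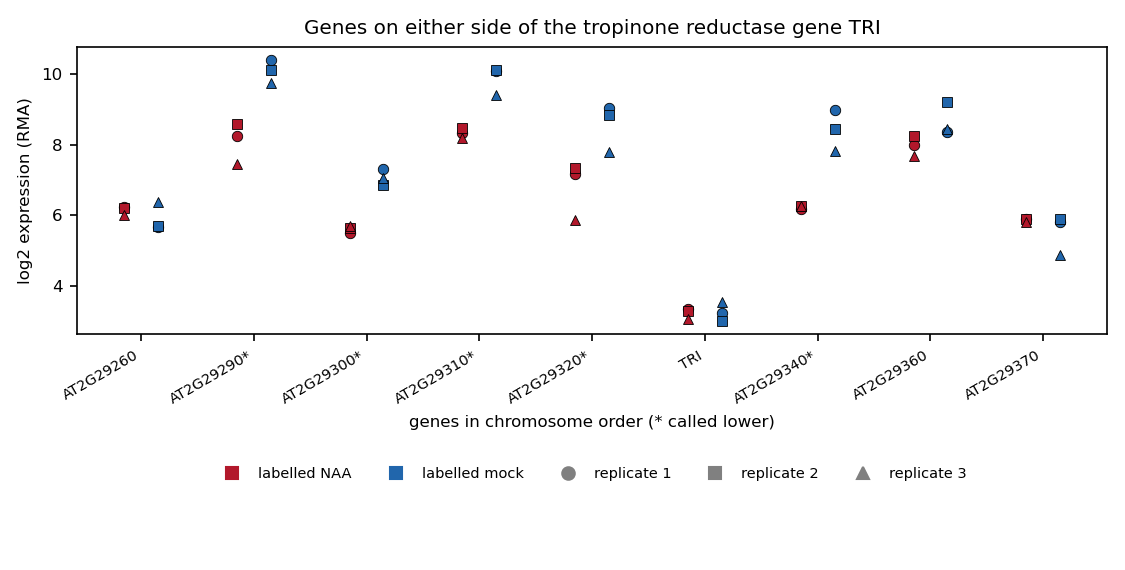
Log2 expression (vertical axis, RMA values) on the arrays labelled NAA (red, left of each pair) and labelled mock (blue, right) for 9 measured genes in chromosome order (horizontal axis), with symbols for the replicate number and asterisks for genes called lower. All 5 called genes have their NAA arrays below their mock arrays, and TRI between them is low on all arrays.

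On the higher side, 220 of the 291 called probe sets are entries of Data S1, and the other 71 are described here. Of these 34 have a gene name, and their changes were small, with a median log2 fold change of 1.11 over the 71. The 25 largest among the named ones ran from 1.03 to 1.73, with adjusted p between 0.000569 and 0.0263 from limma, and 13 of the 25 lost their call without at least 1 array. BGLU28, a beta-glucosidase known to rise when sulphur is short, led them, with 9.15, 8.59 and 8.07 on the NAA arrays and 7.05, 6.72 and 6.87 on the mock arrays (1.73, standard error 0.27, adjusted p = 0.0034). MSRB5, which repairs oxidised methionine in proteins, was 9.30, 8.72 and 8.40 on the NAA arrays, against 7.16, 7.11 and 7.78 on the mock arrays (1.46, standard error 0.26). XTH16, an enzyme that cuts and rejoins xyloglucan in the cell wall, was 11.33, 11.26 and 11.19 on the NAA arrays and 9.87, 10.17 and 10.35 on the mock arrays (1.13, and 0.997 without mock replicate 1). Under the grouping of Data S1 these genes would be lower with auxin.

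Some enzymes of flavonoid and phenolic glucoside synthesis among these 71 are given next. DFR, which commits flavonoids to anthocyanin, was 10.36, 10.02 and 9.31 on the NAA arrays and 8.92, 8.20 and 8.01 on the mock arrays (1.52, standard error 0.35, adjusted p = 0.0174 from limma). Its call was lost without NAA replicate 1 or 2 (adjusted p = 0.0695 and 0.0613) or mock replicate 2 (0.0653), although every NAA array was above every mock array. UF3GT, a flavonoid glycosyltransferase, was 10.09, 9.72 and 9.32 on the NAA arrays, against 8.58, 8.31 and 7.86 on the mock arrays (1.46, standard error 0.26, adjusted p = 0.0061). UGT84A1, which makes glucose esters of hydroxycinnamic acids, was 8.24, 7.95 and 7.84 on the NAA arrays and 6.82, 6.47 and 6.36 on the mock arrays (1.47, standard error 0.19, adjusted p = 0.0016).

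In DFR, UF3GT and UGT84A1 replicate 1 was the highest and replicate 3 the lowest array of each group. TT7, which adds a hydroxyl group to flavonoids ahead of DFR, was higher by 1.56 and is in Data S1. Of 28 listed phenylpropanoid and flavonoid genes 4 were measured, and DFR and TT7 were higher, where 1.9% of all genes were. TT7 was named here only through Data S1, whose entries were all called higher, so that its direction was fixed beforehand. Among genes named by the platform annotation, as DFR is, 1.2% were higher. The other members, BAN (0.15) and HCT (-0.22), were not called. The low-oxygen genes HRA1 (AT3G10040, 1.54) and PCO1 (AT5G15120, 1.41), which limit and end the response to oxygen shortage, were both higher. Both are entries of Data S1, which exchanges the names of the groups, and PCO1 was named only through it.

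**Figure D5:**
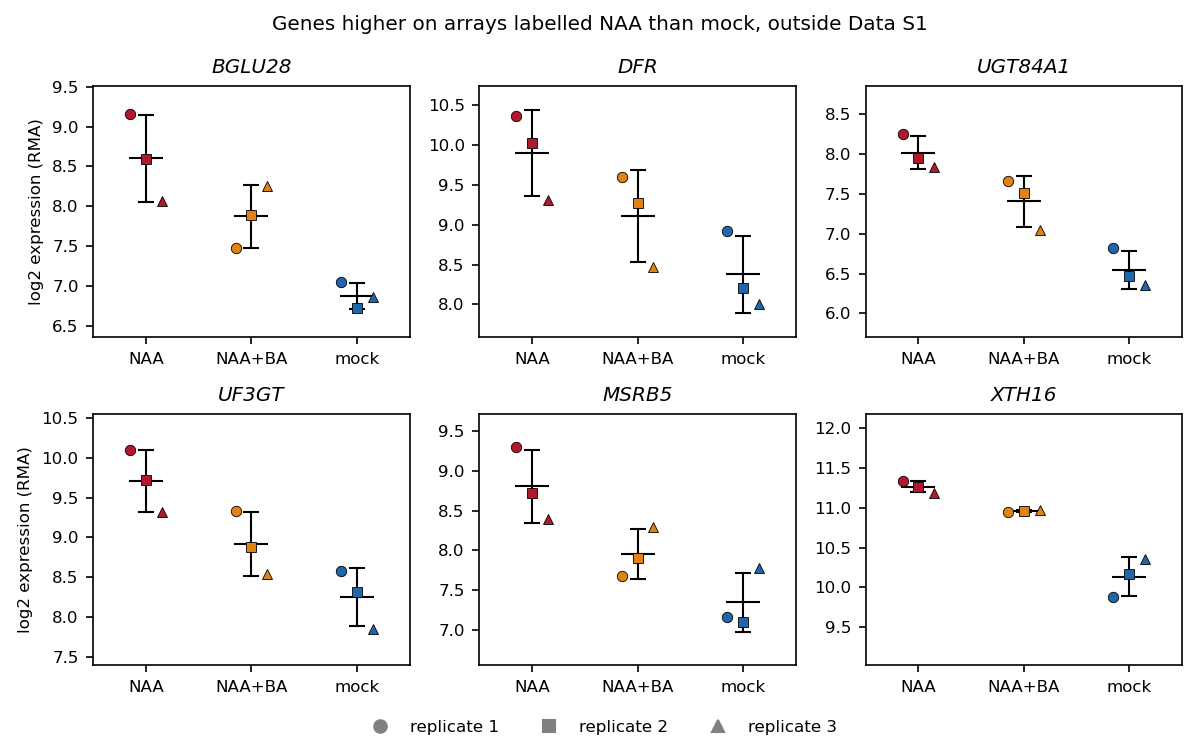
Log2 expression (vertical axis, RMA values) on each array of the groups labelled NAA, NAA+BA and mock for 6 genes called higher that are not in Data S1, with points for arrays, symbols for the replicate number, a line for the group mean and bars for 1 SD (n = 3). Every NAA array lies above every mock array in all 6 genes, and the gap is smallest in DFR.

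Among 49 families of 5 or more genes that share a symbol stem, 565 genes in all, 29 held no called member. Examples are the 22 TBL genes (median log2 fold change 0.06) and the 15 TET genes (0.03). Over all genes only 3.1% were lower and 1.9% higher, so that a small family with no call is no result about that family. The 14 genes whose symbol starts with bZIP were not called, with a median of 0.02, but GBF6, a bZIP gene under another symbol, was higher (1.63). The 384 lower probe sets with no gene name here, which include the lowest of all at -7.09, were counted but not described.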

How the data were processed

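Total RNA of cauline buds was hybridised to 9 Affymetrix ATH1 arrays, 1 per sample. The authors deposited log2 values, which they had computed by RMA (background correction, quantile normalization and summary per probe set), in R 2.15 by their notes, with limma for their own tests. RMA equalises the arrays, so that a change shared by most transcripts would not be seen. All 22810 probe sets were used unfiltered. With limma 3.58.1 in R 4.3.3 (lmFit, eBayes), 1 mean per group was estimated from the 9 arrays together, and the Benjamini-Hochberg adjustment ran over the whole table. The labels call the arrays biological replicates. Deviations from the group means correlated between NAA and mock arrays of the same number at 0.32, 0.38 and 0.45. Between NAA 1 and mock 2 the value was 0.23, and between NAA 2 and mock 1 it was 0.29. For arrays numbered 3 against numbers 1 and 2 these correlations were negative. They thus set number 3 apart and do not show that each number is a pair. The main fit did not use the number, and a fit with it as a block was an alternative.

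Probe sets were named from the platform annotation where it gives 1 gene (13513 probe sets, 13436 of them matched to RefSeq TAIR10.1) and, for entries of Data S1, from its names. Data S1 alone named 98 probe sets, and all of its entries were called higher, so that the direction of these 98 was fixed beforehand. Each gene was read on its probe set with the highest mean. Lists and families, and the genes compared, were chosen with earlier results of these data known. Named were the 25 largest decreases and the 25 largest increases outside Data S1 without overlap, up to 6 members of each list, markers, reference genes, and genes said to be picked after their values were seen. Alternatives are given in the closing section, and the procedure was tested on simulated data. Promoter motifs were left out because promoter sequences were not used here, and some results are not reported here.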

Additional observations from a re-analysis of the deposited data

How the results depend on the processing

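The lower count of 800 stayed within 1.5 times under the 23 alternatives, except with no fold change threshold (2120) and without mock replicate 3 (1218), and leaving out single arrays gave 594 to 1218. The higher count of 291 became 2059 with no fold change threshold, 444 with treat against a fold change of 1.2, 172 at an adjusted p under 0.01, 684 with array weights and 138 to 823 without single arrays (mock replicates 1 and 3). Leaving out the arrays numbered 3 of all groups, an alternative chosen after seeing the data, gave 1135 lower and 835 higher. Lower calls were the majority in each of these settings, by the least with no fold threshold (50.7%). The cause of these shifts was not tested. With the replicate number as a block in the model, 855 were lower and 331 higher on all 9 arrays, including all 800 and 291, and 840 and 300 on the 6 arrays compared, where the calls of PPDK (adjusted p = 0.0711) and AT2G42990 (0.0575) were lost. Of the genes named or ranked, the block otherwise changed only COR15B. Of 110 called genes followed, 80 kept their call in every setting. Values near 0 changed sign without any call: DELTA-VPE was -0.027 after quantile normalization again, -0.010 without NAA replicate 2 and -0.030 without mock replicate 1 (-0.030 to 0.073 over all single arrays). CLV3 was -0.002 with array weights, -0.045 without the arrays numbered 3, and -0.068, -0.037 and -0.226 without NAA replicate 1, NAA replicate 2 and mock replicate 3 (highest 0.220). PEX4 was 0.008 with arrays centred on their median and 0.043, 0.023 and 0.017 without NAA replicate 3, mock replicate 1 and mock replicate 2 (lowest -0.104). AT2G28390 was -0.080 with array weights, -0.056 without the arrays numbered 3, and -0.054 and -0.023 without NAA replicate 3 and mock replicate 1 (highest 0.064). AT3G25790 was 0.039 with array weights, 0.035 without the arrays numbered 3 and 0.025 without mock replicate 3 (lowest -0.075). Precision is limited by 3 arrays a group, and the median SD of lower probe sets was 0.207 on the NAA arrays and 0.448 on the mock arrays.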
